A study of Mus musculus with 28 samples.

Results

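The Hox genes of the mouse were followed in 7 embryonic stem cell lines in which the transcription factors Gfi1, Pou4f3 and Atoh1 could be switched on alone or together. A gene was a member when its symbol, looked up from the Entrez number of its row, was Hoxa, Hoxb, Hoxc or Hoxd followed by a number alone. In the table of 19421 genes, 38 such genes are described here, 10 of the HoxA cluster, 10 of HoxB, 9 of HoxC and 9 of HoxD. Of these, 33 reached 10 normalized counts in 2 libraries or more and were tested, 8, 9, 8 and 8 in the 4 clusters. Hoxa4, Hoxa6, Hoxb13, Hoxc12 and Hoxd12 did not pass that filter, and the highest value any of them reached in a library ran from 1.12 to 14.7 normalized counts.

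Hox genes encode homeodomain transcription factors that give cells their address along the head-to-tail axis of the embryo. They lie in 4 clusters, and genes at the same place in different clusters descend from a common ancestor and form a paralog group, numbered from the 3′ end of the cluster. The 3′ genes, of low number, come on first and reach furthest forward, into the hindbrain, whereas the 5′ genes come on later and mark the trunk, limbs and tail. Retinoic acid and Wnt signals and the Cdx factors open the clusters step by step, Polycomb complexes hold the closed part silent, and the Hox proteins bind DNA together with cofactors of the Pbx, Meis and Pknox families.

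The study asked how Gfi1 and Pou4f3 turn Atoh1, by itself a determinant of neurons, into a determinant of sensory hair cells. Lines iAtoh1, iGfi1, iPou4f3, iG+A (Gfi1 and Atoh1), iG+P (Gfi1 and Pou4f3), iP+A (Pou4f3 and Atoh1) and iGPA (all 3 factors) were made by recombining each construct, with the fluorescent marker Venus, into the inducible locus of the same parental A2loxCre mouse embryonic stem cells. Embryoid bodies (EBs) of each line were left untreated (Ctrl) or received doxycycline (Dox) at 2 µg/ml from day 4 for 48 h, and poly(A) RNA was sequenced at day 6 from sorted Venus+ cells of the Dox cultures and from whole, unsorted EBs of the Ctrl cultures. There were 2 replicates of each of the 14 groups, from different clones of a line, and 28 libraries in all. Dox treatment, the transgenes and the sort therefore cannot be told apart in a comparison of Dox with Ctrl, and in such mixed samples fewer cells of a type cannot be told apart from less RNA per cell.

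Values are normalized counts, the authors' counts scaled for depth between libraries. Each library summed to 36.8 to 40.4 M of them, and its depth estimated from the steps between low values was 30.3 to 48.0 M reads. 1 read was worth 0.82 to 1.22 normalized counts, so values of a few normalized counts rest on a few reads. The induced factors matched the labels. Gfi1 had 8119 to 12490 normalized counts in Dox libraries of the lines that carry it against 49.7 to 113 in the other Dox libraries, Atoh1 had 12820 to 21240 against 14.3 to 32.5, and Pou4f3 had 4694 to 19880 against 27.7 to 101.

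These genes span, in NCBIM37 (mm9), chr6:52112350-52210874 (HoxA), chr11:96055630-96229570 (HoxB), chr15:102751534-102867274 (HoxC) and chr2:74506367-74603200 (HoxD). Of the members, 22 had 24 promoters in the RefSeq table of GRCm38.p6 used here, and 16 had no entry. The 250 bases before the start of 4 genes are shown because the results turn on them: Hoxc4 and Hoxd13 stand for the genes that fell where Gfi1 was induced, and Hoxb1 and Hoxd1 for the 3′ genes that rose. Each run matched NCBIM37 exactly and once, on the plus strand, at chr15:102864576-102864825 for Hoxc4, where it lies within the longer gene that GENCODE draws, chr2:74506032-74506281 for Hoxd13, chr11:96226822-96227071 for Hoxb1 and chr2:74600787-74601036 for Hoxd1. Capitals mark a match, on either strand, to the Gfi1 core AATCAC or to the Pbx-Hox motif TGATNNAT.
Hoxc4: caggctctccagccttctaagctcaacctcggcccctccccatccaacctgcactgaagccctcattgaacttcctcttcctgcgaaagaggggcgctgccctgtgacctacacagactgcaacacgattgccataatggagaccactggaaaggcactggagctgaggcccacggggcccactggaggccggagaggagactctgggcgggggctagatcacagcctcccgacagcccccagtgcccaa
Hoxd13: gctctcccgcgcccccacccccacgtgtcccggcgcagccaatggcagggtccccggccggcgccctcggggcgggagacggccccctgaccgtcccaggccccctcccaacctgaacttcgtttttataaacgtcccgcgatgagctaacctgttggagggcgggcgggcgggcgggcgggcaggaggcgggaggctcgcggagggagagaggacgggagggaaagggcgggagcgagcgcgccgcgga
Hoxb1: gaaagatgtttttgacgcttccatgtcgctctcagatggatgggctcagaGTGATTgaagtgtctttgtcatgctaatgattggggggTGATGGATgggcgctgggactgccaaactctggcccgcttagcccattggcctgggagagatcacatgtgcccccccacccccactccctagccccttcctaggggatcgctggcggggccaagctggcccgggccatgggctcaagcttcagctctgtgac
Hoxd1: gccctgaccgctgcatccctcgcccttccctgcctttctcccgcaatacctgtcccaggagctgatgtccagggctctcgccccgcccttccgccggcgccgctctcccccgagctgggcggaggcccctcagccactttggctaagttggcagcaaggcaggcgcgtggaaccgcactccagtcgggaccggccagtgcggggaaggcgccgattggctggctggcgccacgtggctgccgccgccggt

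Of these 4 runs only that of Hoxb1 held a match to any of the 4 motifs searched on both strands, the first capitals being the reverse complement of the Gfi1 core and the second a Pbx-Hox motif. The Gfi1 core was in 1 of the 24 Hox promoters (4.17%) and in 9.14% of all 32851 promoters of the same length. The Pbx-Hox motif was in 4 of 24 (16.7%), those of Hoxa2, Hoxb1, Hoxb8 and Hoxd11, and in 7.68% of all. The E-box CAGCTG, of the kind that basic helix-loop-helix factors such as Atoh1 bind, was in 3 (12.5%, Hoxa3, Hoxa5 and Hoxa6) and in 13% of all, and ATAATTA, of the kind that POU and homeodomain factors bind, was in 2 (8.33%, both of Hoxd11) and in 2.5% of all. The Hox promoters had a median of 12.5 CpG dinucleotides against 6 over all promoters, and a median GC content of 58.6% against 52.4%. Of 10 promoters of genes that were lower with Gfi1, 1 held a Pbx-Hox motif and 0 held any of the others. The search covered 250 bases before the start, and not all genes that were lower with Gfi1 had a promoter here. The paper reported Gfi1 binding near several Hox genes, among genes that respond to Atoh1 and are repressed when Gfi1 is present. That binding was not examined here.

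All 4 clusters were transcribed in untreated EBs. Summed over its members, HoxA ran from 208 to 791 normalized counts over the 14 Ctrl libraries, HoxB from 2725 to 6491, HoxC from 858 to 1847 and HoxD from 1337 to 4148. Single genes varied by a median factor of 3.79 between the lowest and the highest Ctrl library, with a range over the 33 genes from 1.63 to 26.6. Each Dox group was therefore set against the Ctrl libraries of its own line.

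A gene is said below to have risen or fallen when its log2 fold change, on log2(normalized count + 1), was at least 1.5 in size with a Benjamini-Hochberg adjusted p under 0.05 over the 16837 genes tested. In iG+P cells 23 of 33 Hox genes fell, against 5.36% of all genes, 0 rose (5.16%), and their median log2 fold change was -2.74. In iGPA cells 17 fell and 1 rose, against 5.31% and 8.65% of all genes, with a median of -1.58. In iG+A cells 11 fell and 4 rose, against 4.95% and 7.35%, with a median of 0.15. In iGfi1 cells 5 fell, against 2.67%, and 0 rose (2.15%), with a median of -0.94. The count of 5 became 1 without iGfi1 Ctrl replicate 1 and 3 without either Dox replicate. In the 3 lines without Gfi1 few Hox genes passed: 1 rose and 0 fell in iAtoh1 cells (2.89% and 2.52% of all genes), 2 fell and 0 rose in iP+A cells (2.58% and 4.7%) and 0 passed in iPou4f3 cells (1.47% up and 0.606% down). The median of all genes tested lay within 0.04 of 0 in each of these comparisons, as the depth scaling of the deposited values tends to set it. Of the 33 genes, 27 passed in at least 1 line, as did 25% of all genes tested. The loss in lines with Gfi1 was broad in iG+P, and in iG+A and iGPA it differed between clusters, as the map of Dox effects shows.

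**Figure D1:**
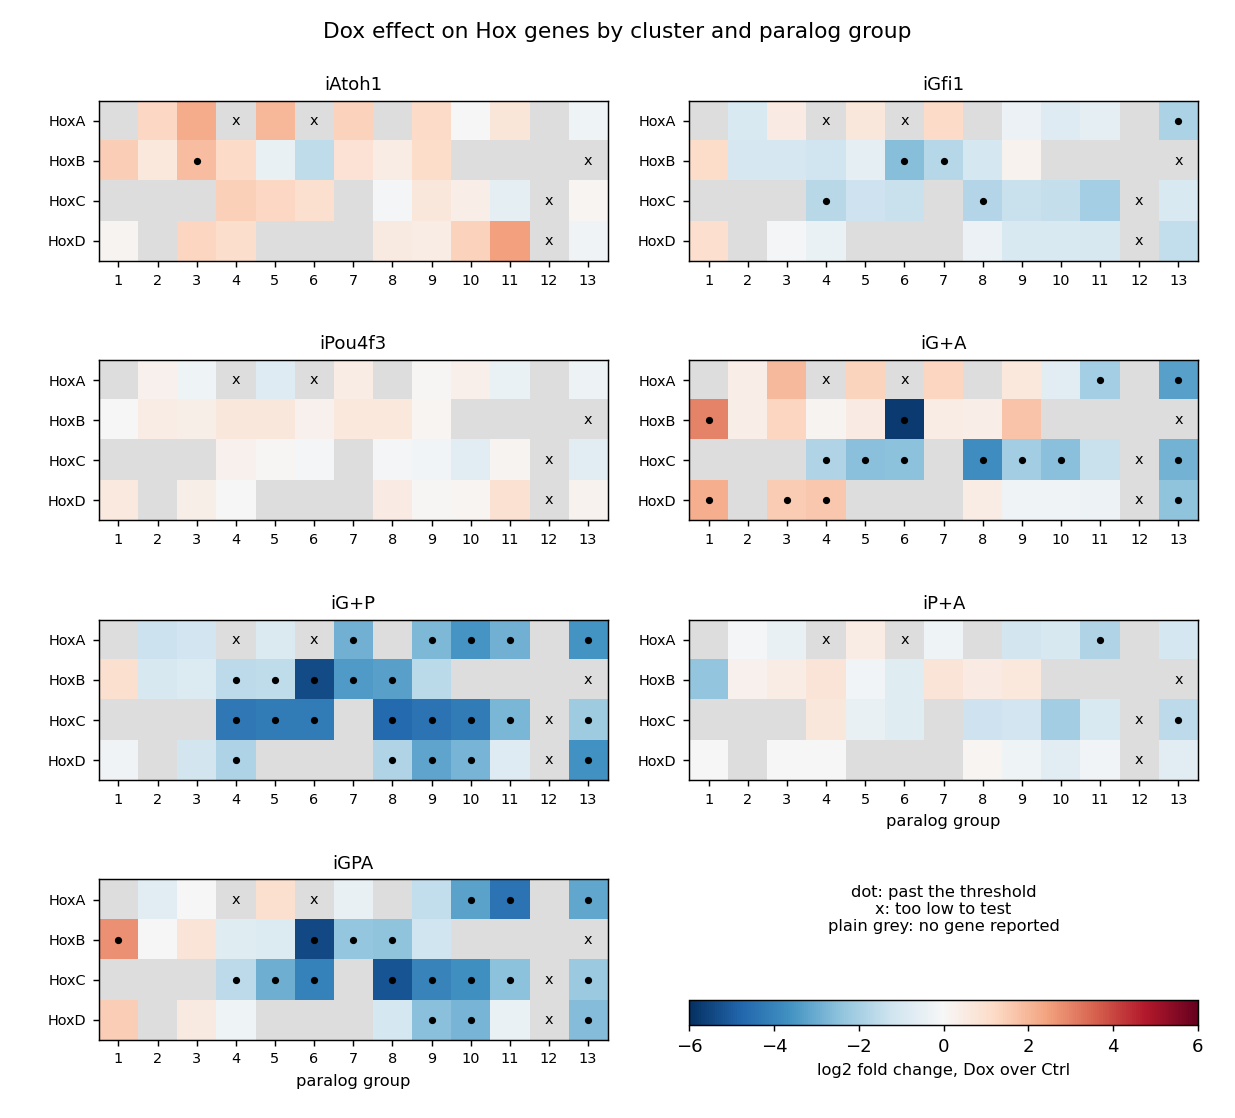
Log2 fold change of each Hox gene, Dox over Ctrl, in the 7 lines, by cluster (rows) and paralog group (columns); blue is lower and red higher with Dox, dots mark genes past the threshold, x genes too low to test, and plain grey places for which no gene is reported. The 23 dots of iG+P cover all 4 clusters, whereas in iG+A the HoxC row is blue and paralog groups 1, 3 and 4 of HoxB and HoxD hold the 4 genes that rose.

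HoxC was the cluster that fell most evenly. Its genes are read in the trunk and limbs, and it has no members of paralog groups 1 to 3. All 8 tested HoxC genes fell in iG+P cells (median log2 fold change -4.22) and in iGPA cells (-3.31), and 7 of 8 fell in iG+A cells (-2.48), the exception being Hoxc11 at -1.34. The sum over HoxC was 1560 and 1218 normalized counts in the iG+P Ctrl libraries and 73.9 and 62.1 with Dox. In iGPA it was 1270 and 1019 in Ctrl and 129 and 119 with Dox, and in iG+A 1310 and 1847 in Ctrl and 269 and 348 with Dox. In each of these lines both Dox libraries lay below both Ctrl libraries.

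Hoxc8, which patterns the thoracic spinal cord and skeleton, had 446 and 330 normalized counts in iGPA Ctrl and 11.2 and 8.07 with Dox. The difference was -5.19 ± 0.41 (log2, SE; adjusted p = 1.3e-08). It had 580 and 417 in iG+P Ctrl and 23.6 and 14.1 with Dox (-4.68 ± 0.41, adjusted p = 8.7e-08). In iG+A the gene had 323 and 512 in Ctrl and 20.2 and 45.2 with Dox (-3.70 ± 0.41, adjusted p = 1.2e-06). Hoxc8 was 1 of 4 genes, with Hoxc4, Hoxb6 and Hoxa13, that fell in all 4 lines with Gfi1, as did 1.07% of all genes. Without iGfi1 Ctrl replicate 1 none of these 4 passed in iGfi1, where Hoxb7 was the only Hox gene to pass whichever library was left out. In iAtoh1 it had 530 and 399 in Ctrl and 549 and 357 with Dox, which overlap.

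Hoxc4, the most 3′ gene of its cluster, was lower in iG+P than in the other lines with Gfi1. It had 267 and 270 normalized counts in iG+P Ctrl and 13.1 and 12.6 with Dox (-4.28 ± 0.28, adjusted p = 3.4e-09). In iGPA it had 254 and 203 in Ctrl and 80.1 and 70.6 with Dox (-1.58 ± 0.28, adjusted p = 0.00016). In iG+A it had 318 and 391 in Ctrl and 133 and 77.4 with Dox (-1.79 ± 0.28), and in iGfi1 283 and 209 in Ctrl and 61.3 and 94.4 with Dox (-1.66 ± 0.28). The Dox libraries of iG+P were thus the lowest of the 28, and those of iGPA, iG+A and iGfi1 overlapped. In iAtoh1 cells Hoxc4 moved the other way, from 254 and 236 to 723 and 594, a difference of 1.42 ± 0.28 (adjusted p = 0.0014) that stayed just under the fold limit. Hoxc4 calls near that limit were lost in iGPA without Ctrl replicate 1 (-1.42) or Dox replicate 2 (-1.49), and in iG+A without Dox replicate 2 (-1.40) and against all 14 untreated libraries (-1.29).

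Hoxc6 had 324 and 212 normalized counts in iG+P Ctrl and 12.6 and 13.8 with Dox (-4.21 ± 0.27, adjusted p = 2.6e-09). In iGPA it had 303 and 230 in Ctrl and 19.5 and 11.3 with Dox (-4.06 ± 0.27), and in iG+A 309 and 371 in Ctrl and 57.6 and 64.3 with Dox (-2.46 ± 0.27). Hoxc9, which sets the identity of thoracic motor neurons, had 188 and 126 in iG+P Ctrl and 5.89 and 6.50 with Dox (-4.43 ± 0.45). For both genes the Ctrl libraries lay above those of iG+A Dox, and these above iG+P and iGPA Dox. In iG+P and iGPA Dox libraries Hoxc5, Hoxc9, Hoxc10 and Hoxc13 were at 0.98 to 12.8 normalized counts, so their folds there depend on the 1 added to each count. The same holds for Hoxc8 in iGPA Dox (11.2 and 8.07). It also holds for Hoxa10, Hoxa11, Hoxa13, Hoxb6, Hoxd10 and Hoxd13 with Dox in both lines, at 1.01 to 17.7. Hoxc5 had 75 and 63.3 in iG+P Ctrl and 0.98 and 6.49 with Dox (-4.18), and Hoxc10 had 74.7 and 84.3 in Ctrl and 4.91 and 2.17 with Dox (-4.22). In iGPA Hoxc5, Hoxc9, Hoxc10 and Hoxc13 had differences of -2.93, -4.01, -3.69 and -2.23, and in iG+A of -2.49, -2.07, -2.52 and -2.83. Hoxc13 differed by -2.12 in iG+P. Hoxc11 had 3.49 and 5.89 in iGPA Ctrl and was listed at 0 in both Dox libraries, and had 8.21 and 9.05 in iG+P Ctrl and 0 and 1.08 with Dox. Both Hoxc11 calls were lost when 5 in place of 1 was added to the counts. In iG+A the calls of Hoxc9 (-1.43) and Hoxc10 (-1.09) were lost without Dox replicate 1, and that of Hoxc10 also without Ctrl replicate 2 (-1.95, adjusted p = 0.15) and in a fit of only the groups compared (adjusted p = 0.13).

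**Figure D2:**
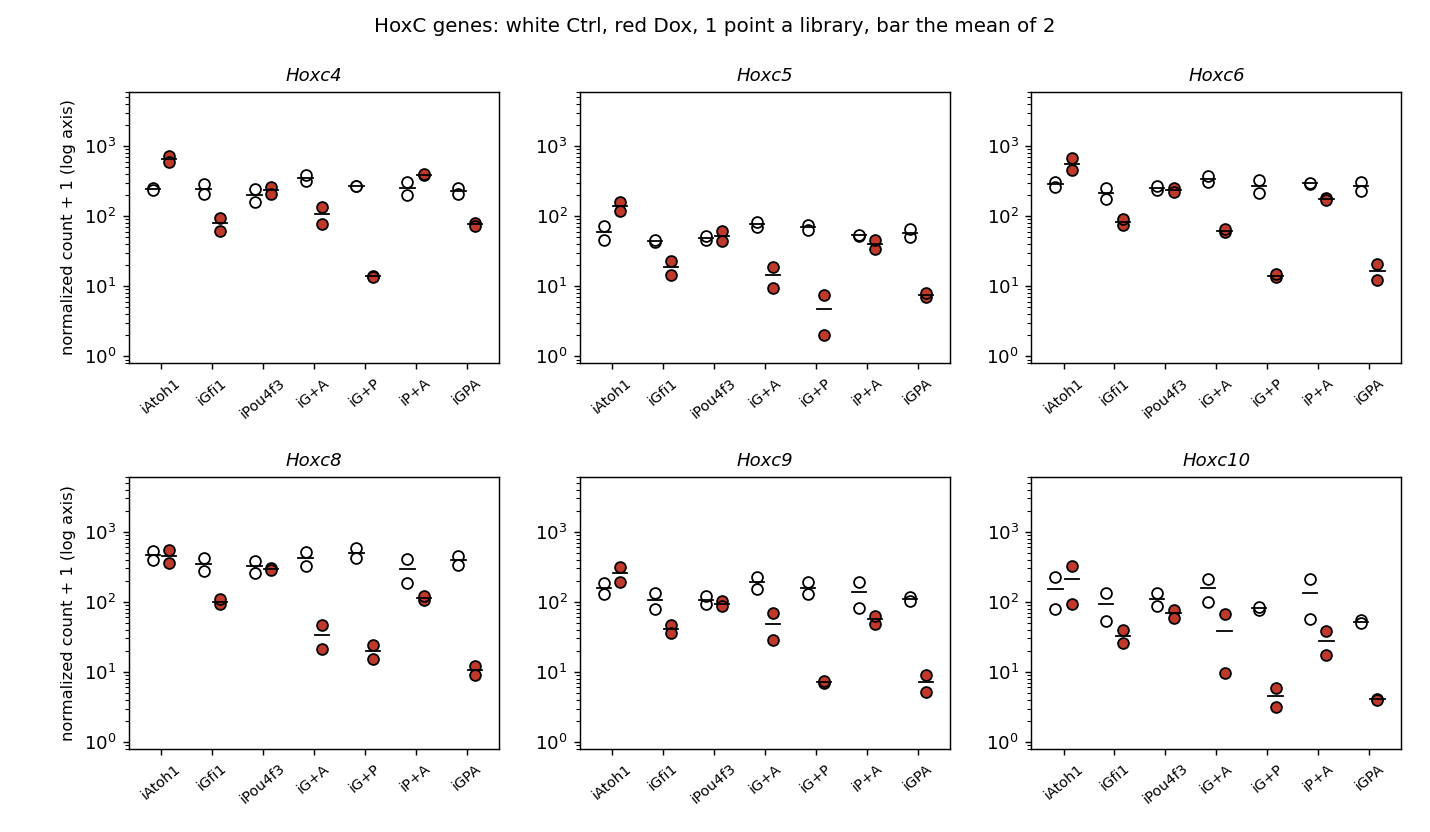
Normalized count plus 1 (log axis) of 6 HoxC genes in each line, white points Ctrl and red points Dox, 1 point a library, with a bar at the mean of 2. In iG+P and iGPA the red points lie more than an order of magnitude below the white ones for Hoxc6, Hoxc8, Hoxc9 and Hoxc10, whereas in iPou4f3 they lie among or near them.

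Of the 9 tested genes of groups 9 to 13 outside HoxC, 7 fell in iG+P, 6 in iGPA, 3 in iG+A and 1 in iGfi1. Hoxa13, which patterns the hand, foot and hindgut, had 66.8 and 66.4 normalized counts in iG+P Ctrl and 4.93 and 4.32 with Dox (-3.59 ± 0.53, adjusted p = 3.7e-05). In iG+A it had 84.8 and 127 in Ctrl and 4.25 and 22 with Dox (-3.25 ± 0.53), in iGPA 49.8 and 53 in Ctrl and 5.10 and 5.04 with Dox (-3.11 ± 0.53), and in iGfi1 94.6 and 62.1 in Ctrl and 29 and 13.4 with Dox (-1.90 ± 0.53, adjusted p = 0.013). Groups did not overlap in any of these 4 lines. Hoxd13, its counterpart in HoxD and likewise a gene of the digits, had 86.1 and 51.2 in iG+P Ctrl and 5.90 and 3.24 with Dox (-3.64 ± 0.67), and fell by 2.43 and 2.58 on the log2 scale in iG+A and iGPA. Hoxa11, of the forelimb and kidney, had 60.3 and 94.3 in iGPA Ctrl and 5.11 and 1.01 with Dox (-4.45 ± 0.63), and its differences in iG+P and iG+A were -2.87 and -2.02. All 3 tested genes of paralog group 13 fell in each of iG+A, iG+P and iGPA. The Hoxd13 call in iG+A was lost in a fit of only the groups compared (adjusted p = 0.082) and without Ctrl replicate 2 (-2.07, adjusted p = 0.062) or Dox replicate 1 (-1.39), and in iGPA without Ctrl replicate 1 or Dox replicate 2 (adjusted p = 0.061 and 0.067). The Hoxa11 call in iG+A was lost in a fit of only the groups compared (adjusted p = 0.097), against all 14 untreated libraries (-1.22) and without Ctrl replicate 2 (-1.46) or Dox replicate 1 (-1.18), and that of Hoxa13 in iGfi1 without Ctrl replicate 1 (-1.61) or Dox replicate 2 (-1.37).

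Of the middle of the clusters, Hoxd9, Hoxb8, Hoxa10, Hoxb7 and Hoxd10 fell in iG+P and iGPA and did not pass in iG+A, whereas Hoxb6, Hoxc5, Hoxc6, Hoxc8 and Hoxc9 fell in all 3. Hoxd9 had 1427 and 756 normalized counts in iG+P Ctrl and 125 and 108 with Dox (-3.15 ± 0.26, adjusted p = 6.3e-08). In iGPA it had 698 and 584 in Ctrl and 114 and 106 with Dox (-2.53 ± 0.26). In iG+A Hoxd9 had 521 and 620 in Ctrl and 382 and 635 with Dox, which overlap. Hoxb8, a gene of the trunk, had 478 and 369 in iG+P Ctrl and 40.4 and 45.4 with Dox (-3.26 ± 0.30), and 408 and 363 in iG+A Ctrl and 327 and 795 with Dox. The same held for Hoxa10 (-3.54 in iG+P, -3.21 in iGPA, -0.69 in iG+A), Hoxb7 (-3.38, -2.32 and 0.43) and Hoxd10 (-2.81, -2.79 and -0.22). Hoxa7 (-2.87), Hoxa9 (-2.69), Hoxb4 (-1.57), Hoxb5 (-1.51), Hoxd4 (-1.86) and Hoxd8 (-1.78) fell in iG+P and in no other line. Several of these calls hung on 1 library of iG+P: without Ctrl replicate 1 Hoxa7 (-2.23, adjusted p = 0.12), Hoxb5 (-1.30) and Hoxd8 (-1.49) were lost, without Dox replicate 1 Hoxb4 (-1.38) and Hoxb5 (-1.19), and without Dox replicate 2 Hoxa7 (-2.54, adjusted p = 0.078) and Hoxd10 (-2.04, adjusted p = 0.06). Hoxb5 was also lost with a pseudocount of 5 (-1.48) and against all 14 untreated libraries (-1.22). Hoxb7 fell in iGfi1 as well (-1.71). The highest estimate in iGfi1 was 1.14, for Hoxa7, which did not pass.

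Hoxb6 had the lowest estimate in each of the 4 lines with Gfi1, but its call in iGfi1 was lost with any of the 4 libraries of that line left out. It had 546 and 397 normalized counts in iG+P Ctrl and 10.8 and 9.72 with Dox (-5.37 ± 0.86, adjusted p = 8.5e-05). In iGPA it had 494 and 513 in Ctrl and 7.14 and 16.1 with Dox (-5.42 ± 0.86), and in iGfi1 285 and 294 in Ctrl and 41.6 and 55.5 with Dox (-2.57 ± 0.86, adjusted p = 0.034). In iG+A it had 284 and 261 in Ctrl and 25.5 with Dox in replicate 1, and was listed at 0 in replicate 2 (fitted difference -5.73 ± 0.86), so that value and its place as the lowest of iG+A rest on an uncertain 0. The neighbours Hoxb5 and Hoxb7 were not at 0 there, with Hoxb7 at 94.6 and 338. The 3 lines without Gfi1 gave -1.501, 0.24 and -0.74, none past the threshold.

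Of the 10 tested genes of groups 1 to 4, 4 rose and 1 fell in iG+A, 1 rose and 1 fell in iGPA, and 0 rose and 3 fell in iG+P, where 9 of 10 estimates were below 0. Of paralog group 1, whose genes come on first and pattern the early hindbrain, Hoxb1 rose in iG+A and iGPA and Hoxd1 in iG+A. Hoxd1 had 203 and 249 normalized counts in iG+A Ctrl and 1029 and 1018 with Dox (2.18 ± 0.25, adjusted p = 2.5e-06). In iGPA it had 380 and 265 in Ctrl and 796 and 972 with Dox (1.47 ± 0.25, adjusted p = 0.00013, just under the fold limit). In iGfi1 it had 317 and 263 in Ctrl and 481 and 704 with Dox (1.01 ± 0.25, adjusted p = 0.0068). Both Dox libraries lay above both Ctrl libraries in all 3 lines, but not in iG+P, with 935 and 595 in Ctrl and 606 and 690 with Dox.

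Hoxb1 had 50.7 and 31.4 normalized counts in iGPA Ctrl and 242 and 317 with Dox (2.76 ± 0.94, adjusted p = 0.023). That call was lost under quantile normalization (2.36, adjusted p = 0.055) and without Ctrl replicate 2 or either Dox replicate of iGPA (2.43 to 2.96, adjusted p from 0.061 to 0.12). In iG+A Hoxb1 had 27.9 and 43.8 in Ctrl and 81.8 and 976 with Dox (2.98 ± 0.94, adjusted p = 0.017). The 2 iG+A Dox libraries differed by more than an order of magnitude, and without replicate 2 of that group the difference was 1.20 (adjusted p = 0.33). The iG+A call was also lost without Ctrl replicate 1 (2.67, adjusted p = 0.097) and in a fit of only the groups compared (adjusted p = 0.12). In iP+A Hoxb1 had the lowest estimate of any Hox gene, from 71.4 and 25.7 to 23.5 and 1.92 (-2.38 ± 0.94, adjusted p = 0.074). In iG+P Hoxb1 had 195 and 83.4 in Ctrl and 324 and 190 with Dox (0.95), which overlap, and it did not pass. These Dox values lay near those of iGPA, and the 195 was the highest value of Hoxb1 in any Ctrl library.

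Hoxd3 and Hoxd4, which mark the posterior hindbrain and neck, rose in iG+A cells and passed upward in no other line. Hoxd3 had 586 and 616 normalized counts in iG+A Ctrl and 1767 and 1677 with Dox (1.52 ± 0.24, adjusted p = 5.7e-05). Hoxd4 had 124 and 135 in Ctrl and 341 and 480 with Dox (1.64 ± 0.34, adjusted p = 0.00094). In iAtoh1 the estimates were 1.28 for Hoxd3 (588 and 483 in Ctrl, 1253 and 1342 with Dox, adjusted p = 0.00074) and 1.05 for Hoxd4 (141 and 133 in Ctrl, 292 and 276 with Dox, adjusted p = 0.034), under the fold limit, and the difference between iG+A and iAtoh1 was not tested. These genes share exon sequence, so their counts may not be independent. In iG+P cells Hoxd4 instead fell, from 238 and 164 to 66.8 and 43.3, the only member to have risen in 1 line and fallen in another, a call lost against all 14 untreated libraries (-1.12). In iG+A Hoxd3 was lost under quantile normalization (1.47) and without Ctrl replicate 1 or Dox replicate 1 (1.48 in each case), and Hoxd4 under quantile normalization (1.41) and without Dox replicate 2 (1.40). Hoxb3 was near the limit in iG+A, with 712 and 792 in Ctrl and 1271 and 2632 with Dox (1.28 ± 0.30, adjusted p = 0.0024).

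**Figure D3:**
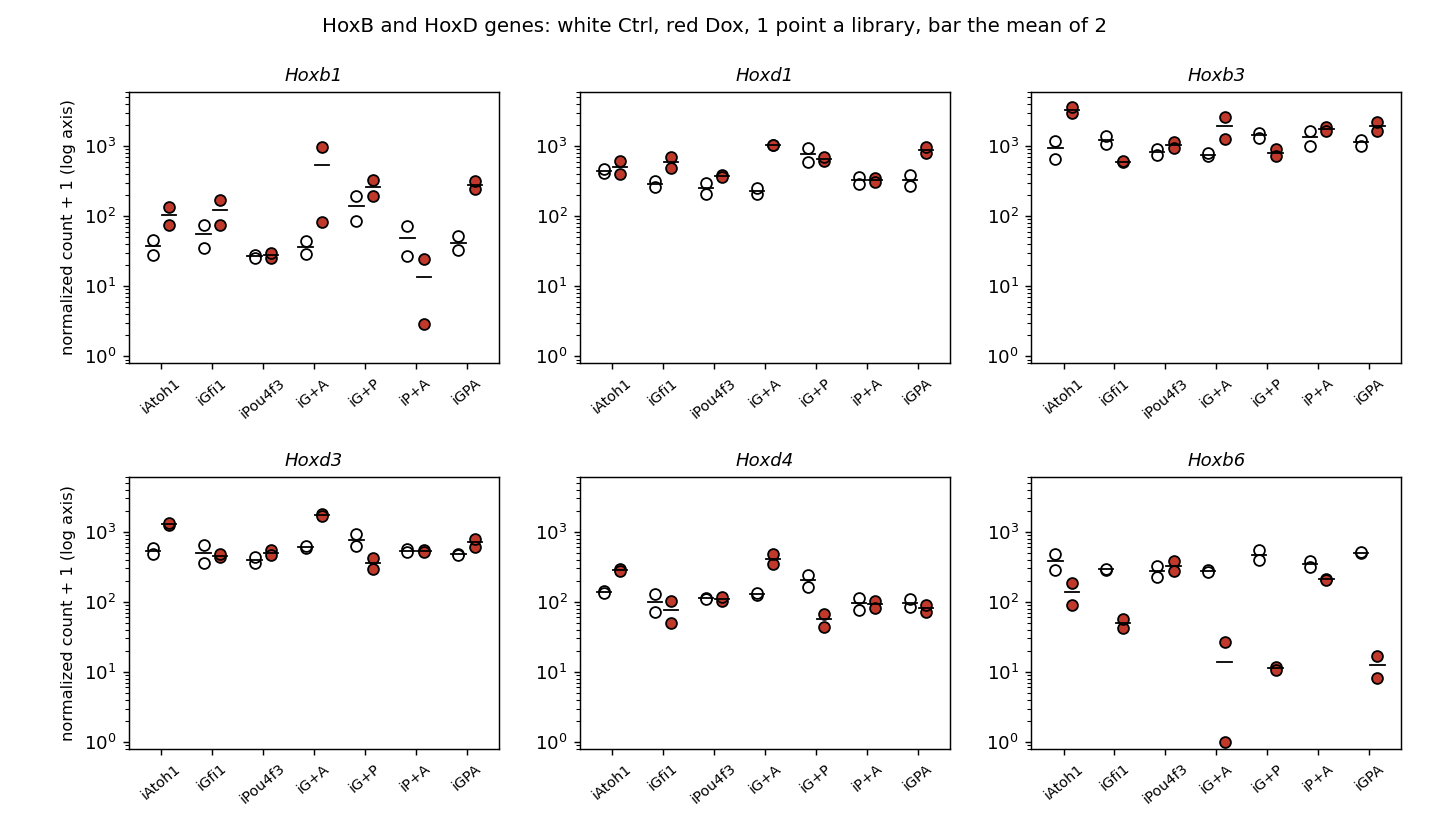
Normalized count plus 1 (log axis) of 5 genes of paralog groups 1, 3 and 4 and of Hoxb6 in each line, white points Ctrl and red points Dox, 1 point a library, with a bar at the mean of 2. Hoxd1, Hoxd3 and Hoxd4 lie higher with Dox in iG+A, Hoxb3 lies higher in iAtoh1, and Hoxb6 lies lower in the 4 lines with Gfi1, down to a library listed at 0 in iG+A.

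The Dox replicates of iG+A disagreed over Hox genes more than those of any other group. Replicate 2 was higher than replicate 1 in 28 of 33 genes, by a median of 1.28 on the log2 scale, and the median size of the difference was also 1.28, against 0.25 to 0.74 in the other 13 groups. Over all genes the median size of the difference between these replicates was 0.245, also the highest of the groups, which ranged from 0.115. The HoxA sum was 289 and 1058 normalized counts in the 2 libraries and the HoxB sum 3571 and 7648, whereas the HoxC sum was 269 and 348. Without replicate 2 of iG+A Dox 2 Hox genes rose there, and without replicate 1, 7 did, against 4 with both. The number that fell ranged from 7 to 11.

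In iAtoh1 cells most Hox genes lay higher with Dox, although few passed. The estimate was above 0 for 26 of 33 genes, with a median of 0.86. Hoxb3, of the posterior hindbrain, had 661 and 1187 normalized counts in Ctrl and 2930 and 3579 with Dox (1.87 ± 0.30, adjusted p = 0.00023). Hoxd11 had the highest estimate but on low and scattered counts, with 27.3 and 2.45 in Ctrl and 77.5 and 37 with Dox (2.47 ± 1.22, adjusted p = 0.16). Hoxb6 had the lowest (-1.501, adjusted p = 0.22), and 0 genes fell by limma, where 11 (35.6% of all genes) had an unadjusted p under 0.05 in either direction. With the replicate block 4 Hox genes rose in place of 1. Without Ctrl replicate 1 the difference of Hoxb3 was 1.45, under the fold limit, and with any of the 4 libraries left out 2 Hox genes rose.

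In iPou4f3 cells 0 of 33 Hox genes passed by limma, and 3 had an unadjusted p under 0.05, where 18.2% of all genes did. The estimates ran from -0.78 for Hoxa5 to 0.89 for Hoxd11. The HoxC sum was 1003 and 1168 normalized counts in Ctrl and 1086 and 922 with Dox, which overlap. In iP+A cells Hoxa11 (73.4 and 166 in Ctrl, 33.5 and 28.8 with Dox, -1.80 ± 0.63, adjusted p = 0.045) and Hoxc13 (52.9 and 65.3 in Ctrl, 17.2 and 21.1 with Dox, -1.57 ± 0.47, adjusted p = 0.02) fell, and the highest estimate was 0.79 for Hoxb4. Both calls were weak. That of Hoxa11 was lost with no filter (adjusted p = 0.053), in a fit of only the groups compared (adjusted p = 0.075), against all 14 untreated libraries (-1.46) and without iP+A Ctrl replicate 2 (-1.22), Dox replicate 1 (adjusted p = 0.13) or Dox replicate 2 (adjusted p = 0.17). That of Hoxc13 was lost with a pseudocount of 5 (-1.41), against all 14 untreated libraries (-0.91, adjusted p = 0.062) and without iP+A Ctrl replicate 2 (-1.43), Dox replicate 1 (-1.43) or Dox replicate 2 (adjusted p = 0.057). Under the replicate block 4 genes fell in iP+A in place of 2, and leaving out a library of the line gave between 0 and 5. The 3 genes of paralog group 13 had estimates between -0.67 and 0.21 in iPou4f3, and between -1.57 and -0.69 in iP+A.

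Read along the clusters, the estimates tended to be lower toward the 5′ end in every line, most in iGPA and least in iPou4f3. Over the 33 genes, Spearman's rho between paralog group and log2 fold change was -0.64 in iGPA, and over the double lines -0.59 with iG+A, -0.47 with iG+P and -0.46 with iP+A. The single lines iAtoh1, iGfi1 and iPou4f3 gave -0.42, -0.33 and -0.28. These values are given as a description, since genes of a cluster share cells, libraries and chromatin. In iG+A the median was 1.40 over the 10 genes of groups 1 to 4, 0.42 over the 10 of groups 5 to 8 and -1.34 over the 13 of groups 9 to 13. In iGPA these medians were -0.0032, -2.36 and -2.59, and in iG+P -1.13, -3.32 and -2.87. Without HoxC, which has no genes of groups 1 to 3, the medians in the same order were 1.52, 0.43 and -0.29 in iG+A, 0.01, -1.07 and -2.59 in iGPA and -1.10, -2.88 and -2.87 in iG+P, nearer 0 for groups 9 to 13 in iG+A and for groups 5 to 8 in iGPA. Within a cluster the order differed between lines. Over the 8 HoxD genes rho was -0.98 in iG+A, -0.95 in iGfi1, -0.81 in iGPA, -0.79 in iP+A and -0.60 in iG+P, but -0.05 in iPou4f3 and 0.10 in iAtoh1. Over the 8 HoxA genes it was between -0.83 and -0.76 in iAtoh1, iP+A, iGPA, iG+A and iG+P, and -0.38 and -0.19 in iGfi1 and iPou4f3. Over the 9 HoxB genes it ran from -0.83 in iGPA and -0.80 in iG+P to 0.48 in iP+A, and over the 8 HoxC genes from -0.81 in iAtoh1 to 0.45 in iG+P, with 0.07 in iGPA.

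By paralog group, the counts of genes that fell in iG+P were 0 of 2 in group 1, 0 of 2 in group 2, 0 of 3 in group 3, 3 of 3 in group 4, 2 of 3 in group 5, 2 of 2 in groups 6 and 7 each, 3 of 3 in group 8, 3 of 4 in group 9, 3 of 3 in group 10, 2 of 3 in group 11 and 3 of 3 in group 13. The medians went from 0.37 in group 1 to -4.79 in group 6 and -3.59 in group 13. In iGPA groups 2 and 3 had 0 of 5 genes past the threshold, with medians of -0.34 and 0.55, whereas groups 10 and 13 had 3 of 3 each, with medians of -3.21 and -2.59. In iG+A groups 7, 2 and 9 had medians of 0.87, 0.40 and 0.21, and groups 6 and 13 of -4.10 and -2.83.

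The difference that goes with each factor was tested directly, as the mean Dox effect over the lines with the factor minus that over the lines without it, in which the treatment and the sort are common to both sides. With Gfi1, 17 Hox genes were lower and 1 was higher, against 2.96% and 3.88% of all genes, and the median was -1.69. The 7 HoxC genes Hoxc4 (-3.10 ± 0.22, adjusted p = 6e-09), Hoxc5 (-3.02 ± 0.36), Hoxc6 (-3.05 ± 0.21), Hoxc8 (-3.36 ± 0.31), Hoxc9 (-2.74 ± 0.35), Hoxc10 (-2.16 ± 0.63) and Hoxc11 (-1.69 ± 0.64, adjusted p = 0.048) were among them, and Hoxc13 was not (-1.31, adjusted p = 0.0079). The call of Hoxc11 was lost with a pseudocount of 5 (-0.73, adjusted p = 0.14) and when any of 20 of the libraries was left out, and that of no other gene of this contrast was lost without a library. Also lower were Hoxb6 (-4.11 ± 0.66), Hoxb7 (-2.49), Hoxb8 (-2.11) and Hoxb4 (-1.72) of HoxB, Hoxa13 (-2.42), Hoxa11 (-1.97) and Hoxa10 (-1.82) of HoxA, and Hoxd13 (-2.30), Hoxd10 (-1.98) and Hoxd9 (-1.80) of HoxD. Hoxb1 was higher (2.24 ± 0.72, adjusted p = 0.02). For 13 of the 33 genes the Dox effect was lower in each of the 4 lines with Gfi1 than in each of the 3 without, against 10.3% of all genes, and for Atoh1 and Pou4f3 this count was 0 (8.05%) and 2 (1.86%). Since 2 of 4 lines with Gfi1 and 2 of 3 without it carry Atoh1, and the same holds for Pou4f3, the factors are not fully balanced in this contrast.

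With Atoh1, Hoxb3 (1.59 ± 0.23, adjusted p = 4.2e-05) and Hoxc4 (1.58 ± 0.22, adjusted p = 2.2e-05) were higher and 0 genes were lower, against 2.99% and 1.59% of all genes, and 29 of 33 estimates were above 0 (median 0.63). With Pou4f3, Hoxa3 (-2.002 ± 0.61), Hoxa7 (-2.07 ± 0.62), Hoxa9 (-1.78 ± 0.48), Hoxa11 (-1.77 ± 0.48) and Hoxc9 (-1.53 ± 0.35) were lower, 4 of them in HoxA, with adjusted p from 0.0072 to 0.044, and 0 were higher, against 0.529% and 1.81% of all genes. The count for Pou4f3 ran from 0 to 10 with a library left out. It was 0 without iAtoh1 Dox replicate 1, iGfi1 Ctrl replicate 2 or iG+A Dox replicate 2, and 10 without iG+A Dox replicate 1. Of the 2 Atoh1 genes, Hoxb3 was lost without iAtoh1 Ctrl replicate 1 (1.49) or iG+A Dox replicate 2 (1.46), and Hoxc4 without iGfi1 Dox replicate 1, iPou4f3 Ctrl replicate 1 or iG+A Dox replicate 1 (1.48 to 1.49), with a pseudocount of 5 (1.47) and under quantile normalization (1.41), and 4 genes passed without iG+P Dox replicate 1.

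**Figure D4:**
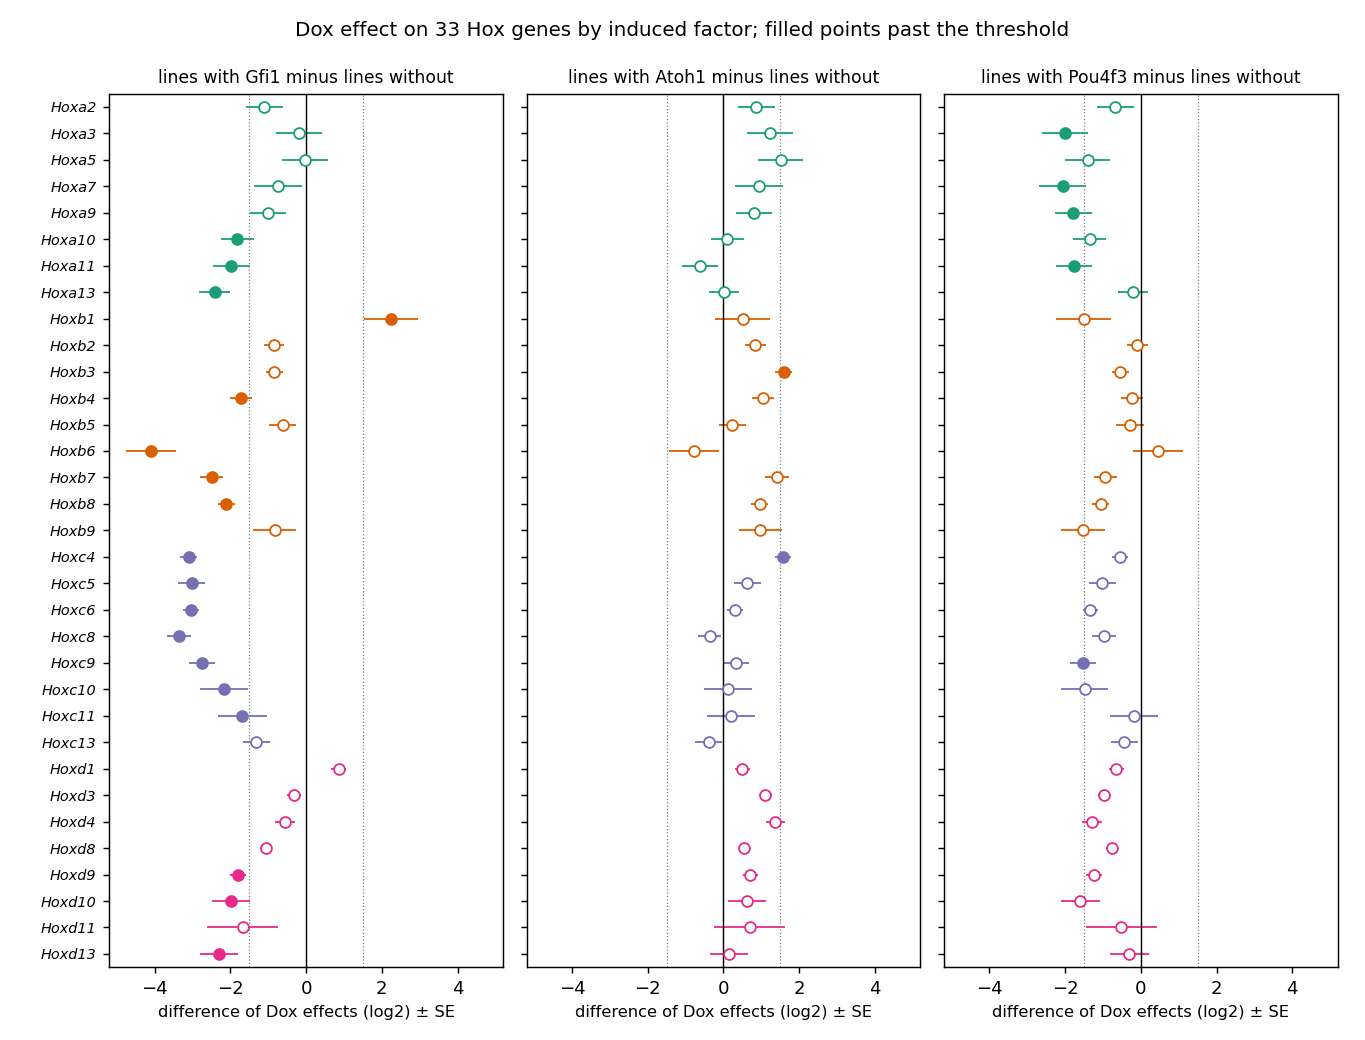
Difference of the mean Dox effect (log2, point with SE bar) between lines with and without Gfi1, Atoh1 or Pou4f3, for the 33 tested Hox genes in order of cluster; filled points are past the threshold and dotted lines mark the fold limit of 1.5. For Gfi1 17 filled points lie on the left, 1 of them Hoxc11, whose call was lost with a pseudocount of 5, and the filled point on the right is Hoxb1.

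The 2 lines that join Gfi1 with 1 other factor were also set against each other; factor and line cannot be told apart in this. The Dox effect in iG+A minus that in iG+P, a contrast added after the values had been seen, was above 0 for 31 of 33 Hox genes, with a median of 2.11. It passed for 17, against 4.85% of all genes up, and for 0 in the other direction by limma, where 21 of the 33 had an unadjusted p under 0.05 (33.2% of all genes) and 3.28% of all genes passed downward. Hoxb8 differed by 3.67 ± 0.42 (adjusted p = 1.3e-05), Hoxd4 by 3.50 ± 0.49, Hoxd9 by 2.94 ± 0.37, Hoxd3 by 2.62 ± 0.33, Hoxc4 by 2.49 ± 0.40 and Hoxd1 by 2.39 ± 0.36. For Hoxd1 the Ctrl libraries differed as well, with 203 and 249 normalized counts in iG+A and 935 and 595 in iG+P. Its Dox libraries had 1029 and 1018 in iG+A and 606 and 690 in iG+P. The others past the threshold were Hoxa7 (4.18), Hoxb7 (3.81), Hoxa9 (3.32), Hoxb9 (3.30), Hoxa10 (2.85), Hoxc9 (2.37), Hoxd8 (2.21), Hoxb3 (2.11), Hoxb5 (2.02), Hoxc6 (1.76) and Hoxb4 (1.73). The 6 genes of groups 11 and 13 all missed it, with medians of 0.85 and 0.34, as did Hoxb6 (-0.36). The count was 9 without iG+P Ctrl replicate 1 and 10 without iG+A Ctrl replicate 1, and 9 of the 17 passed whichever library was left out. In the same contrast 5 of 5 endothelium genes were higher in iG+A (1.61 to 2.56) and 4 of 9 blood genes lower, with all 9 blood estimates below 0. Of the 16 mesoderm genes 4 were higher and 0 lower, of the 13 fibroblast genes 1 and 2, of the 10 neuron genes 2 and 1, and of the neural progenitor, endoderm and pluripotency genes 1, 1 and 0 were higher and 0 lower. The part of these cell types in the Hox difference was not tested.

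The Dox effect in iG+P was also set against the sum of the Dox effects in iGfi1 and iPou4f3, in a contrast added after the values had been seen. It was below that sum, past the threshold, for Hoxb8 (-2.88 ± 0.52), Hoxc4 (-2.86 ± 0.49), Hoxc6 (-2.75 ± 0.47), Hoxd8 (-1.92 ± 0.32) and Hoxd9 (-2.28 ± 0.46), with adjusted p from 0.014 to 0.039, against 0.0891% of all genes, and 33 of 33 estimates were below 0. Its precision was low, since 6 groups of 2 enter it. Dox and the sort enter the Dox effect of every line, so their shared part does not cancel against a sum of single lines. It cannot be told apart from the factors in any of these sums. Without iGfi1 Ctrl replicate 2, iGfi1 Dox replicate 2, iPou4f3 Dox replicate 1 or iG+P Ctrl replicate 1 the count was 0, and it was 1 and 2 without iPou4f3 Ctrl replicates 1 and 2 and 3 without iG+P Dox replicate 1. In iG+A the Dox effect on Hoxc6 was below the sum of those in iGfi1 and iAtoh1 (-2.06 ± 0.47, adjusted p = 0.015), against 0.998% of all genes, and was lost without iAtoh1 Dox replicate 1 or iGfi1 Ctrl replicate 2. In iP+A 0 genes differed from the sum of iPou4f3 and iAtoh1 by limma, against 0.232% upward and 0.19% downward, where 8 had an unadjusted p under 0.05 (12% of all genes) and 2 passed with the replicate block.

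Over the mean of all 7 lines 8 Hox genes fell and 0 rose, against 2.05% and 3.33% of all genes. They were Hoxb6 (-3.01), Hoxc8 (-2.40), Hoxc10 (-2.03), Hoxa13 (-1.93), Hoxc9 (-1.79), Hoxc6 (-1.71), Hoxa11 (-1.62) and Hoxd13 (-1.54). With a pseudocount of 5 Hoxa11 (-1.38) and Hoxd13 (-1.27) were lost, and Hoxd13 also when any of 10 of the libraries was left out (-1.40 to -1.49). Of the 33 genes, 11 fell in each of iG+A, iG+P and iGPA, against 1.91% of all genes, namely Hoxa11, Hoxa13, Hoxb6, Hoxd13 and the HoxC genes other than Hoxc11. Hoxa2, Hoxa3, Hoxa5, Hoxb2, Hoxb9 and Hoxd11 passed in no line. Among these Hoxb2, of rhombomeres and cranial nerves, was well counted and had estimates between -1.01 in iGfi1 and 0.66 in iAtoh1. Hoxa3 and Hoxd11 were scattered, and Hoxa3 had 15.5 and 47.9 normalized counts in iAtoh1 Ctrl and 80.4 and 212 with Dox (2.21 ± 0.80, adjusted p = 0.053).

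Of 18 tested genes that flank the 4 clusters, 0 rose in any line by limma, against 1.47% to 8.65% of all genes. In each of iG+A, iG+P, iP+A and iGPA 2 fell, against 4.95%, 5.36%, 2.58% and 5.31% of all genes. In iGfi1 1 fell (2.67%), and in iAtoh1 and iPou4f3 0 fell (2.52% and 0.606%). Their medians lay between -0.20 and 0.07. By limma 2 to 10 of them had an unadjusted p under 0.05 in a line, as did 18.2% to 52.3% of all genes. The only genes that fell were Calcoco2 and Ttll6, beside HoxB. Calcoco2, an autophagy receptor, fell in the 4 lines with Gfi1 and in iP+A (-1.73 to -2.46), and Ttll6, a tubulin glutamylase, in iG+A, iG+P, iP+A and iGPA (-1.51 to -2.30). Beside HoxC, Calcoco1, Smug1, Cbx5 and Hnrnpa1 passed nowhere. Evx1, beside HoxA and itself a homeobox gene of the posterior embryo, differed by 1.16 between iG+A and iG+P, under the limit.

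**Figure D5:**
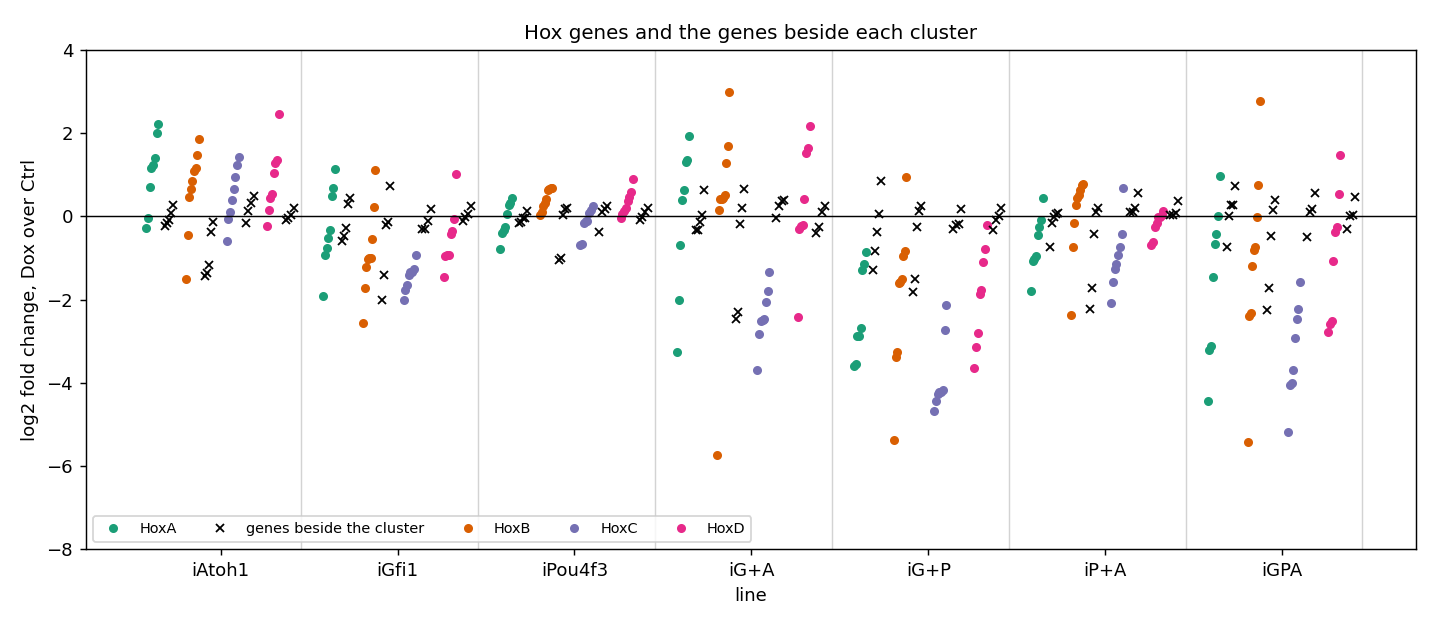
Log2 fold change, Dox over Ctrl, of each tested Hox gene (coloured points, by cluster) and of 18 genes beside the clusters (crosses) in the 7 lines. In iG+P and iGPA the 8 HoxC points lie between -1.58 and -5.19 while the crosses beside them lie near 0, and the lowest crosses, beside HoxB, are Calcoco2 and Ttll6.

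Factors that work with Hox genes or upstream of them were taken as lists. Of 9 tested TALE cofactors, the Meis, Pbx and Pknox proteins that bind beside Hox proteins, only Meis1 in iG+P passed in a line (-1.57 ± 0.24), from 1074 and 1110 normalized counts to 420 and 320. Among Cdx and ParaHox genes, Cdx2, an activator of trunk Hox genes, went from 2629 and 1469 to 194 and 107 in iG+P (-3.76 ± 0.43, adjusted p = 2.1e-06), while its iGPA values were 1192 and 645 in Ctrl and 212 and 171 with Dox (-2.20 ± 0.43). Cdx2 in iG+A (-1.16) and iGfi1 (-1.39) missed the fold limit, and its Dox effect was higher in iG+A than in iG+P by 2.60 ± 0.61 (adjusted p = 0.0054). Cdx1 rose in iGfi1 (1.93) and iG+P (2.64), and Pdx1 fell in iGPA (-2.49). Of the 10 Hox genes of groups 5 to 8, 9 fell in iG+P and 6 in iGPA, where Cdx2 fell, and 4 in iG+A and 3 in iGfi1, where it did not pass. The part of Cdx2 in the Hox results was not tested.

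Of 12 genes of retinoic acid synthesis, transport and response, 1 to 3 rose and 0 to 2 fell in a line. Stra6, the cellular receptor for retinol-binding protein, rose in all 7 lines (1.85 to 7.11), and went from 8.80 and 18.2 normalized counts to 1419 and 2546 in iG+A. Crabp1, a retinoic acid binding protein, fell in iGfi1, iG+A, iG+P, iP+A and iGPA (-1.53 to -4.14). Aldh1a2, which makes retinoic acid in the trunk, rose in iG+A (3.60 ± 0.85, adjusted p = 0.0024) and iGPA (3.62 ± 0.85), and its estimate in iG+P was 2.23 (adjusted p = 0.05), at the limit. In iG+P 2 of the 12 genes rose, with Stra6 the highest. Cyp26b1, which breaks retinoic acid down, rose in iPou4f3 (3.08) and iG+A (3.49). Of 11 genes of the posterior growth zone 2 rose in each of iG+A and iGPA, 1 in iG+P and 0 in the other 4 lines, and 2 fell in iAtoh1, 1 in each of iGfi1, iG+A, iG+P and iP+A and 0 in iPou4f3 and iGPA. Msgn1 rose in iG+P (4.43) and iGPA (3.21), Wnt5b in iG+A (1.67) and iGPA (1.59) and Gdf11 in iG+A (1.59). Nkx1-2 fell in 5 lines, most in iG+P (-4.05), and Cyp26a1 fell in iAtoh1 (-2.34). Of 7 genes of hindbrain segments Gbx2 rose in iGfi1 (2.72), iG+P (3.14) and iGPA (2.47), and Fgf3 rose in iGfi1 (1.88). Of 23 tested Polycomb and trithorax genes 0 rose and 1 fell, Phf19 in iP+A (-1.78), and 0 passed in iG+A, iG+P or iGPA, where their medians were 0.07, 0.12 and 0.22.

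Markers of other cell types moved with the same contrasts, and their part in the Hox results was not tested. The sum over 16 mesoderm genes was 29470 to 70700 normalized counts in Ctrl libraries and 14050 to 25010 in the Dox libraries of the 4 lines with Gfi1, against 38800 to 69580 in the other Dox libraries. In iG+P 5 of the 16 rose and 4 fell, in iGPA 7 and 4, in iG+A 7 and 2, in iGfi1 4 and 2, in iP+A 2 and 1, and in iAtoh1 2 and 0. The 13 fibroblast genes summed to 154300 to 405400 in Ctrl and to 56800 and 63210 in iGPA Dox, 12 of them fell in iGPA, 6 each in iG+A and iG+P, 3 each in iGfi1 and iAtoh1 and 2 in iP+A, and 1 rose in each of iP+A and iGPA. All 10 neuron genes rose in iP+A, 8 in iGPA, 4 in iAtoh1, 3 in iG+A and 2 each in iPou4f3 and iG+P, and 1 fell in each of the 4 lines with Gfi1. The 9 blood genes summed to 69310 to 485300 in Ctrl and to 14040 to 365500 with Dox, 5 fell in iAtoh1, 4 each in iG+A and iP+A, 3 in iGPA and 1 in iG+P, and 1 rose in iGfi1. Of 8 endoderm genes 0 rose and 1 to 4 fell in a line, of 5 endothelium genes 0 to 2 fell, of 5 neural progenitor genes 0 to 3 rose and 0 to 1 fell, and of 10 pluripotency genes 6 fell in iG+A and in iP+A, 4 in iGPA, 2 in iG+P and 0 in the other 3 lines.

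Some members share sequence or position with other transcripts, and the counting of transcripts may divide reads between them. Exons overlap between Hoxa2 and Hoxa3, Hoxb7 and Hoxb8, and Hoxd3 and Hoxd4. Antisense transcripts overlap Hoxa3, Hoxa7, Hoxa11, Hoxb2, Hoxb3, Hoxb5 and Hoxd3. Hoxc5 and Hoxc10 share an annotated read-through transcript, as do Hoxd10 and Hoxd11. Values of these genes are less certain than those of Hoxc4, Hoxc6, Hoxc8, Hoxc9, Hoxa10, Hoxa13, Hoxd1, Hoxd9 and Hoxd13, for which no overlapping exon was annotated. None was annotated for Hoxb6 either, but its 0 beside 25.5 normalized counts in the iG+A Dox libraries leaves its value there uncertain, and whether the counting gave its reads to another transcript was not tested.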

How the data were processed

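RNA of 28 libraries, 2 for each of 14 groups, was measured by poly(A) sequencing. The authors trimmed reads with cutadapt, quantified them with kallisto against mm9 transcripts, summed them to genes and normalized them with DESeq2 (versions not given in the sources used here), and the deposited values are on a log2 scale, as log2(normalized count + 1). Whole reads could not be recovered, since 72.4% to 79.6% of low values were within 0.05 of a whole step, so no count test was run. Of 19421 genes, 19314 were named from RefSeq and 107 were not, and 16837 that reached 10 normalized counts in 2 libraries or more were tested.

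The 14 groups entered a common limma fit (version 3.58.1, R 4.3.3, variance trend, 14 residual degrees of freedom, Benjamini-Hochberg within a contrast), after the fit was tested on simulated data. The threshold was an adjusted p under 0.05 and a log2 fold change of at least 1.5. Errors are SE, with a median of 0.184 for a Dox effect over all genes. 1 Hox gene stayed in the fit over all genes but is not reported here and enters no count or sum of Hox genes. Every other Hox gene past the threshold was named, with the highest and lowest of each line. Of the other lists only some members past the threshold were named, at most 3 in a contrast, and Crabp1 in iG+A beyond that rule. The members and gene lists were chosen with earlier results of these data known. The contrasts of iG+A with iG+P and of each combination with the sum of its single lines were chosen after seeing the data.

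The series record gives the replicates as different clones of a line, so equal numbers were taken to pair Dox with Ctrl within a line, although it does not state that they are the same clone. The correlation of their deviations from the group means was 0.103 (iG+P) to 0.246 (iP+A) over the 7 lines, each above 0.1. A fit with this replicate block (7 residual degrees of freedom), another pseudocount, no filter, quantile normalization, fits of only the groups compared, all 14 untreated libraries as control and each library left out were the alternatives. Genes were placed by GENCODE M1 on NCBIM37.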

Additional observations from a re-analysis of the deposited data

Results flagged for a closer look

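The Dox effect differed between lines with and without a factor, by a test of the difference itself, for 25 values of 22 Hox genes. With Gfi1 the difference (log2) was 2.24 for Hoxb1 and negative for all others: -1.82 for Hoxa10, -1.97 for Hoxa11, -2.42 for Hoxa13, -1.72 for Hoxb4, -4.11 for Hoxb6, -2.49 for Hoxb7, -2.11 for Hoxb8, -3.10 for Hoxc4, -3.02 for Hoxc5, -3.05 for Hoxc6, -3.36 for Hoxc8, -2.74 for Hoxc9, -2.16 for Hoxc10, -1.69 for Hoxc11, -1.80 for Hoxd9, -1.98 for Hoxd10 and -2.30 for Hoxd13. With Atoh1 it was 1.59 for Hoxb3 and 1.58 for Hoxc4. With Pou4f3 it was -2.002 for Hoxa3, -2.07 for Hoxa7, -1.78 for Hoxa9, -1.77 for Hoxa11 and -1.53 for Hoxc9. Of the values for Gfi1, 17 of 18 passed whichever library was left out, the exception being Hoxc11, and of those for Atoh1 and Pou4f3 0 of 2 and 0 of 5 did. Hoxc4 was lower with Gfi1 and higher with Atoh1, and Hoxa11 and Hoxc9 were lower with both Gfi1 and Pou4f3. With a pseudocount of 5 the Pou4f3 calls of Hoxa11 (-1.41) and Hoxc9 (-1.26) and the Atoh1 call of Hoxc4 (1.47) were lost.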

How the results depend on the processing

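None of the 120 Hox calls reversed under any alternative. With a pseudocount of 5, 109 of them passed, with no filter 118, under quantile normalization 112, and with the replicate block all 120. In fits of only the groups compared 59 of 64 passed, and with all 14 untreated libraries as control 66 of 72. Over all libraries left out in turn 1603 of 1824 did, and the libraries whose omission lost most calls were iG+P Ctrl replicate 1 (22), iG+A Dox replicate 2 (16) and iG+A Ctrl replicate 1 (15). A lone library was then assumed to vary like the other groups.

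Counts that moved were these. With a pseudocount of 5, 2 genes rose in iAtoh1, 1 fell in iP+A, 1 was higher with Atoh1, 3 were lower with Pou4f3 and 2 were below the sum in iG+A. With no filter 1 fell in iP+A. Under quantile normalization 2 rose in iAtoh1, 2 in iG+A and 0 in iGPA, 3 were lower with Pou4f3 and 2 were below the sum in iG+A. With the replicate block 4 rose in iAtoh1, 4 fell in iP+A, 2 were below the sum in iG+A and 2 in iP+A, and no other count moved by more than 1.5 times. With only the groups compared 1 fell in iP+A. Against all 14 untreated libraries 6 rose in iAtoh1, 8 in iG+A and 1 in iG+P, and 11 fell in iGfi1. The cause of these moves was not tested.

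With a library left out, 2 to 2 genes rose in iAtoh1, 1 to 6 fell in iGfi1, 2 to 7 rose and 7 to 11 fell in iG+A, 19 to 22 fell in iG+P, 0 to 5 fell in iP+A, 0 to 2 rose and 15 to 16 fell in iGPA. By factor, 1 to 1 was higher and 16 to 17 lower with Gfi1, 1 to 4 higher with Atoh1 and 0 to 10 lower with Pou4f3, and 7 to 10 fell in the mean of 7 lines. Against the sum, 0 to 7 were lower in iG+P, 0 to 2 higher and 0 to 4 lower in iG+A and 0 to 1 lower in iP+A, and iG+A exceeded iG+P for 9 to 21 genes and was below it for 0 to 1. Of the calls, 17 of 23 in iG+P, 14 of 18 in iGPA, 7 of 15 in iG+A, 1 of 5 in iGfi1, 0 of 2 in iP+A and 0 of 1 in iAtoh1 passed whichever library was left out. The limits are the 2 libraries a group and the few reads behind low genes such as Hoxc11 and Hoxd11.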
